A study of Rattus norvegicus with 10 samples.

Results

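The genes described here encode the proteins that release calcium from the sarcoplasmic reticulum of the heart muscle cell and take it back up. The members were fixed by name: 10 genes, found as the 25 probe sets whose only gene symbol in the platform annotation is 1 of those names, out of 14217 genes and 31042 probe sets. A probe set is a group of short array probes designed against 1 transcript. The animals were males of the inbred rat strain Fischer-344, and their hearts were profiled on an Affymetrix rat expression array at 6 months (Young, 5 arrays) and 24 months (Old, 5 arrays). All rats received standard chow and no drug or gene alteration is named for either age. The sample protocols name the whole heart and the series text the ventricles, so the presence of atria is not settled. No label ties each array to its own animal. The p-values below therefore reflect the scatter among arrays, which may be technical.

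In a heart muscle cell the action potential opens the L-type calcium channel, and the calcium that enters opens the ryanodine receptor Ryr2 on the facing membrane of the sarcoplasmic reticulum, which releases a far larger store. Junctophilin-2 (Jph2) holds the facing membranes together. Calsequestrin-2 (Casq2) buffers calcium inside the store, and triadin (Trdn) and junctin (a product of Asph) anchor it to the receptor. Relaxation follows when the pump SERCA2 (Atp2a2), restrained by phospholamban (Pln) and sarcolipin (Sln), returns calcium to the store, and when the sodium-calcium exchanger (Slc8a1) carries the rest out of the cell.

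Every value is a log2 difference from the median of that probe set over the 10 arrays, with the log base taken as 2 because the labels do not state it. The table therefore shows which arrays were high or low for a gene, but not how abundant 1 gene was beside another. A gene value is the mean of its probe sets. Old and Young were compared with limma over all genes, and again over all probe sets, and a feature is said to have risen or fallen where its adjusted p was under 0.05. The array medians lay between -0.00972 and 0.0093, and the highest correlation between any 2 arrays was 0.57.

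Upstream sequences are shown first for the 4 members that fell at 24 months, Ryr2, Casq2, Jph2 and Atp2a2, because these are the genes on which the comparison turns. Each is the 250 bases before the annotated start in RefSeq's GRCr8 promoter table, on the gene's own strand, 5′ to 3′. Of the 10 members, 8 matched that table, and Sln and Asph did not. Capitals mark matches, on either strand, to 4 motifs: the TATA box TATAAA, the CCAAT box, the Sp1-type box GGGCGG, and the MEF2 consensus.
Ryr2 (chr17:63081277-63081526, + strand): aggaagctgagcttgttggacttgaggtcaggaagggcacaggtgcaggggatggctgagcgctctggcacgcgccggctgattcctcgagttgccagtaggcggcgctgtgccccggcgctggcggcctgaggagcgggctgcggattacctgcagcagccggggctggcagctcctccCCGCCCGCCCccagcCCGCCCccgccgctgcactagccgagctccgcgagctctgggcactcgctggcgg
Casq2 (chr2:192214306-192214555, + strand): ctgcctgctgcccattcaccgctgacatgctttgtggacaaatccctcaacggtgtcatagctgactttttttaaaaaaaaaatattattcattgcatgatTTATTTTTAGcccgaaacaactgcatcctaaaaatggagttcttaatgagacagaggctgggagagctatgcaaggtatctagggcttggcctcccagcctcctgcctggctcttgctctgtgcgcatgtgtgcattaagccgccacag
Jph2 (chr3:172477922-172478171, - strand): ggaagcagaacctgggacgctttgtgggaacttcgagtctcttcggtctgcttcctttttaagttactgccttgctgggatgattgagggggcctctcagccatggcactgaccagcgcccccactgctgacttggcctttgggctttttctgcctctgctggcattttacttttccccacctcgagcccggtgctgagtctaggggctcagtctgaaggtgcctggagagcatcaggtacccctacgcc
Atp2a2 (chr12:39733269-39733518, + strand): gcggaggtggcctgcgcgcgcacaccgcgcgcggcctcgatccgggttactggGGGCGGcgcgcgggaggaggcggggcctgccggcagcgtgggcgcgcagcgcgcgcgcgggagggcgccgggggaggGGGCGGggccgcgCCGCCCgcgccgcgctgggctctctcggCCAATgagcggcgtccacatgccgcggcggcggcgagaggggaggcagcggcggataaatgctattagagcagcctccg

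No motif searched was common to all 4 windows. Ryr2 held 3 matches to GGGCGG, of which the first 2 overlap, and Atp2a2 held 3 matches to GGGCGG and 1 to CCAAT. Casq2 held 1 match to the MEF2 consensus, a site family of muscle genes, beginning at position -149 from the start. Jph2 held no match to any of the 4. Of the members that did not fall, Fkbp1b held 2 matches to GGGCGG, Pln and Slc8a1 held 1 each to CCAAT, and Trdn held none. Among all 33469 windows of this length in the table, 30.5% held GGGCGG, 34% CCAAT, 12.9% TATAAA and 2.96% the MEF2 consensus. The bases G and C made up 72% of the Ryr2 window and 80% of that of Atp2a2, against 46.4% for Casq2, 57.2% for Jph2 and a median of 51.2% over all windows. A match is a run of letters only and was not tested as a binding site.

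At 24 months 4 of the 10 genes were lower, Ryr2, Casq2 and Jph2 of the release group and Atp2a2 of the reuptake group, and none was higher. The differences were moderate, between -0.34 and -0.58 on the log2 scale, which for base 2 is a change in signal of -20.8% to -33.1%. The other 6 genes did not pass the test. Over all genes, 5.09% fell and 6.77% rose. At an unadjusted p under 0.05 limma gave 0 of the 10 higher and 8 lower, where 14.3% of all genes were higher and 12% lower. For 3 of the 10, Ryr2, Casq2 and Jph2, every Old array lay below every Young array, which was so for 4.78% of all genes. Of the 25 probe sets 11 fell and 0 rose (1 was higher at an unadjusted p under 0.05, as were 10.8% of all probe sets), where 3.6% of all probe sets fell and 4.42% rose. The ages did not overlap in 10 of the 25, all lower in Old, against 3.65% of all probe sets.

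**Figure D1:**
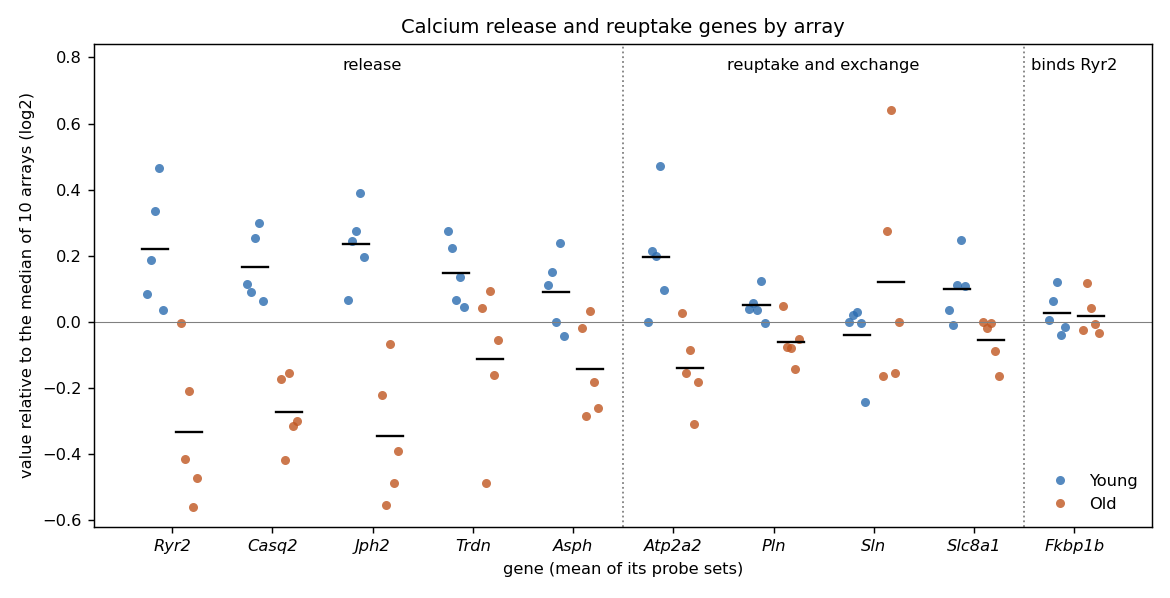
Value of each of the 10 genes on each array, as the log2 difference from the median of the 10 arrays; points are arrays, black bars the mean of 5 Young or 5 Old arrays. The Young and Old points of Ryr2, Casq2 and Jph2 are separate, whereas those of Trdn, Asph, Atp2a2, Pln, Sln, Slc8a1 and Fkbp1b overlap.

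The release channel gene Ryr2 gave 0.08, 0.19, 0.34, 0.46 and 0.03 in Young replicates 1, 2, 3, 4 and 6. The Old replicates 2, 3, 4, 5 and 6 gave -0.00, -0.41, -0.21, -0.56 and -0.47. Old replicate 2 lay closest to the Young arrays, while the other 4 Old arrays lay at -0.21 or lower. The difference was -0.55 ± 0.11 SE (95% confidence interval -0.79 to -0.32, adjusted p = 0.00786, n = 5 per age). Its 2 probe sets both fell, 1382775_at by 0.71 (adjusted p = 0.00596) and 1382088_at by 0.40 (adjusted p = 0.0261). The call of 1382088_at was lost without Young replicate 2 (adjusted p = 0.0502), 3 (0.0737) or 4 (0.0535) or Old replicate 5 (0.0742) or 6 (0.0582), whereas the gene was called without any 1 array (adjusted p 0.00225 to 0.026).

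Casq2, the calcium buffer of the store, gave 0.12, 0.09, 0.25, 0.30 and 0.06 in the Young arrays in the same order. In the Old arrays it gave -0.17, -0.42, -0.16, -0.31 and -0.30, so the ages did not overlap, and Young replicate 6 and Old replicate 4 were nearest to each other. Of the 10 members it had the smallest adjusted p (0.00241; -0.44 ± 0.07 SE, 95% confidence interval -0.58 to -0.29). Its probe sets 1387401_at and 1368988_at both fell, by 0.53 (adjusted p = 0.004) and 0.35 (adjusted p = 0.014). Both were called without any 1 array.

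Jph2, the membrane tether of the release site, had the largest difference of the 10 genes. Its 1 probe set, 1372159_at, gave 0.07, 0.24, 0.27, 0.39 and 0.20 in the Young arrays and -0.22, -0.56, -0.07, -0.49 and -0.39 in the Old arrays. Young replicate 1 and Old replicate 4 came closest to each other, and Old replicates 3 and 5 were lowest. The difference was -0.58 ± 0.09 SE (95% confidence interval -0.78 to -0.38, adjusted p = 0.00279), and it passed without any 1 array.

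For triadin and Asph the mean over probe sets did not pass, and the probe sets of each gene differed. Trdn as a gene gave -0.26 ± 0.10 SE (adjusted p = 0.103; -0.17 without Old replicate 3) and Asph -0.23 ± 0.08 SE (adjusted p = 0.0647). The Asph gene call passed without Old replicate 2 (adjusted p = 0.0452) or 4 (0.0361) and with quantile normalization (0.0478). Asph is a locus with several products, the enzyme aspartyl/asparaginyl hydroxylase as well as junctin and junctate, and triadin also has several splice forms. Which product each probe set reads was not analysed here.

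Of the 4 triadin probe sets, 1370738_a_at and 1370739_x_at, which the annotation gives the same source sequence, fell by 0.59 (adjusted p = 0.00443) and 0.56 (adjusted p = 0.00533). They share that sequence and are not independent measurements. The first gave 0.45, 0.56, 0.21, 0.43 and 0.06 in the Young arrays and -0.06, -0.50, -0.12, -0.27 and -0.26 in the Old arrays. Each of these Old arrays lay below all Young arrays, with Young replicate 6 and Old replicate 2 nearest to each other. The other 2 probe sets were not called. For 1371138_at the difference was 0.03 with a narrow interval, -0.10 to 0.16. For 1370198_at it was 0.07 with a wide one, -0.41 to 0.55, and the Old arrays ranged from -0.88 in replicate 3 to 0.56 in replicate 4. The suffixes of the 2 probe sets that fell mark probes that can match more than 1 transcript. Without all probe sets of such suffixes the gene value of Trdn was 0.05 (adjusted p = 0.847).

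The 4 Asph probe sets spanned the widest range of any member, -0.71 to 0.32. The probe set 1381046_at fell by 0.71 (adjusted p = 0.00589) and 1379884_at by 0.50 (adjusted p = 0.00563). The first gave 0.42, 0.34, 0.29, 0.63 and 0.02 in the Young arrays and -0.02, -0.49, -0.17, -0.46 and -0.72 in the Old arrays. Young replicate 6 and Old replicate 2 again lay beside the boundary between the ages, which did not overlap. In contrast, 1382060_at gave -0.03, -0.06, -0.33, 0.03 and -0.27 in the Young arrays and 0.14, -0.12, 0.47, 0.17 and 0.28 in the Old arrays. Here 4 of the 5 Old arrays were above all Young arrays, and the difference of 0.32 ± 0.10 SE did not pass (95% confidence interval 0.10 to 0.54, adjusted p = 0.0754). It passed without Old replicate 3 (0.40, adjusted p = 0.0186), with array weights (0.40, adjusted p = 0.0186) and with the SD filter (adjusted p = 0.0445). It also passed without Old replicates 3 and 6 together (0.39, adjusted p = 0.0486). The last, 1393345_at, gave -0.04 (95% confidence interval -0.16 to 0.07).

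**Figure D2:**
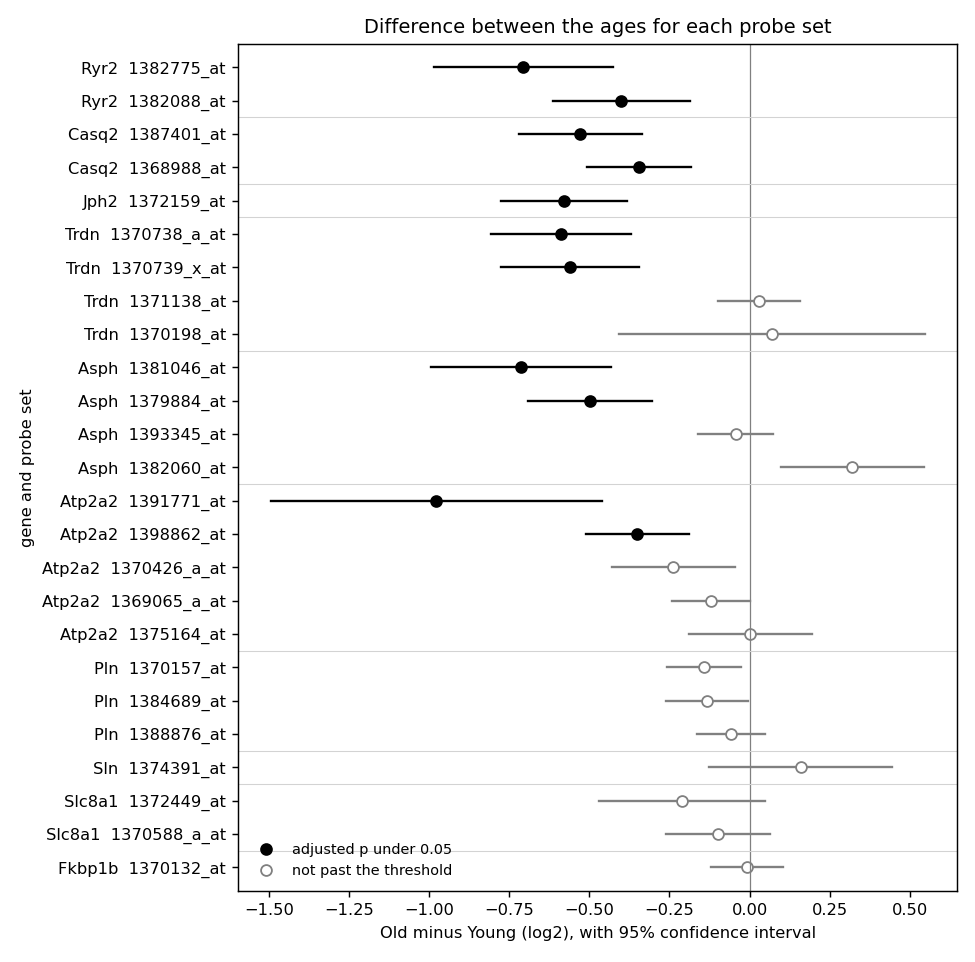
Old minus Young difference (log2) of each of the 25 probe sets with its 95% confidence interval, grouped by gene; filled black points have an adjusted p under 0.05 over all probe sets. Probe sets of Trdn, Asph and Atp2a2 are spread from strongly negative values to 0 or above, while both probe sets of Ryr2 and of Casq2 lie below 0.

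Among the reuptake and exchange genes, the calcium pump gene Atp2a2 was the 1 that fell. As a gene it gave 0.00, 0.21, 0.20, 0.47 and 0.10 in the Young arrays and 0.03, -0.15, -0.09, -0.31 and -0.18 in the Old arrays. The ages overlapped, since Old replicate 2 lay above Young replicate 1. The difference was -0.34 ± 0.09 SE (95% confidence interval -0.52 to -0.15, adjusted p = 0.0251). The call was lost without Young replicate 2 (adjusted p = 0.057) or 3 (0.0576) or Old replicate 5 (0.0674) or 6 (0.0572).

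Its 5 probe sets ranged from -0.98 to 0.00. The largest fall of the 25 probe sets was in 1391771_at (-0.98 ± 0.24 SE, adjusted p = 0.0247), whose Young arrays gave 0.05, 0.60, 0.42, 1.50 and 0.07 and whose Old arrays gave -0.05, -0.22, -0.52, -0.87 and -0.59. Young replicate 4 was far above the rest, and without it the difference was -0.73, still past the threshold. This call was lost without Young replicate 2 (adjusted p = 0.0604) or 3 (0.053) or Old replicate 5 (0.0701) or 6 (0.057), and with robust eBayes (0.054). The probe set 1398862_at also fell (-0.35 ± 0.07 SE, adjusted p = 0.0124). Its ages did not overlap, and it passed without any 1 array. The remaining 3 were not called, with 95% confidence intervals of -0.43 to -0.05 for 1370426_a_at, -0.24 to 0.00 for 1369065_a_at and -0.19 to 0.19 for 1375164_at. The gene has splice forms with different ends, SERCA2a of heart muscle and the widely expressed SERCA2b, and which of them each probe set reads was not analysed here.

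Phospholamban, which slows the pump until it is phosphorylated, was not called. Pln gave 0.04, 0.06, 0.03, 0.12 and -0.00 in the Young arrays and 0.05, -0.08, -0.08, -0.14 and -0.05 in the Old arrays. Old replicate 2 lay among the Young arrays and the other 4 Old arrays below them. The difference was -0.11 ± 0.05 SE (95% confidence interval -0.21 to -0.01, adjusted p = 0.155), and its probe sets 1370157_at, 1384689_at and 1388876_at gave -0.14, -0.13 and -0.06. Within each array the value of Atp2a2 minus that of Pln was 0.15 ± 0.14 (SD, n = 5) in Young and -0.08 ± 0.07 in Old hearts, a description of 2 members that was not tested.

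Sarcolipin, a small inhibitor of the pump that in rodent hearts is made mainly in the atria, was the 1 gene of the 10 with a higher mean in Old hearts, and it was not called. Sln, read by the probe set 1374391_at, gave -0.00, 0.02, 0.03, -0.00 and -0.24 in the Young arrays and -0.16, 0.27, 0.64, -0.15 and 0.00 in the Old arrays. Old replicates 4 and 3 were the highest of all arrays and Young replicate 6 the lowest, with the rest intermixed. The difference was 0.16 ± 0.13 SE (95% confidence interval -0.13 to 0.45, adjusted p = 0.507), and it was 0.03 without Old replicate 4. Atrial marker genes were compared beside it because the tissue may hold atria. Of 10 listed, 9 were measured, and 2 of these rose, Nppa for atrial natriuretic peptide (2.69 ± 0.38 SE, adjusted p = 0.0018) and Myl7 for the atrial regulatory myosin light chain (1.45 ± 0.37 SE, adjusted p = 0.0261). The mean over the 9 markers lay between -0.48 and -0.08 in Young arrays and between 0.06 and 0.38 in Old arrays. Nppa and Myl7 had by far the largest differences in that mean, and those of the other 7 markers lay between -0.29 and 0.26, with a median over all 9 of 0.15. Among them, the atrial myosin light chain gene Myl4 gave 0.26 (adjusted p = 0.151) and the atrial potassium channel gene Kcna5 -0.29 (adjusted p = 0.36). Young replicate 6, the array of lowest Sln, had the highest Myl7 of the Young arrays (0.55). The call of Myl7 was lost without Young replicate 2, 3 or 4 or Old replicate 4, 5 or 6 (adjusted p up to 0.0684), with quantile normalization (0.0761) and with robust eBayes (0.0576). The part of atrial tissue in these values was not tested.

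**Figure D3:**
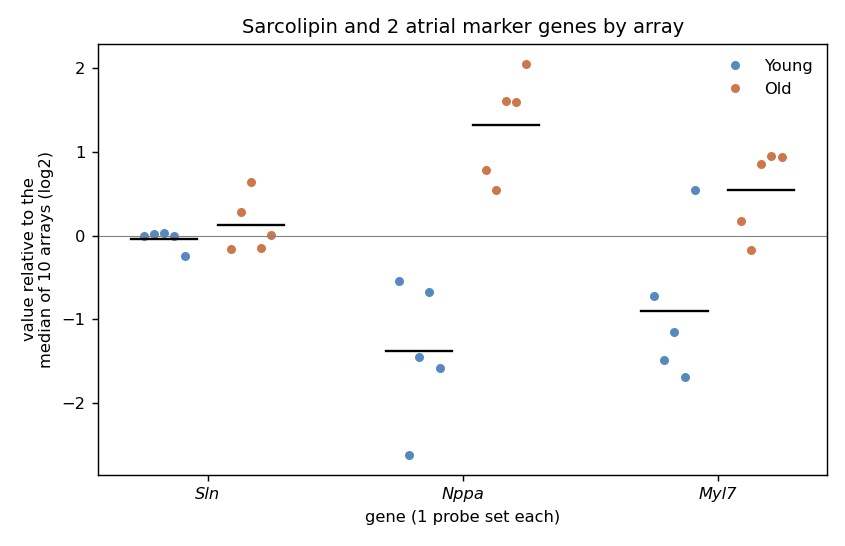
Values of Sln and of the atrial markers Nppa and Myl7 on each array, as the log2 difference from the median of the 10 arrays; black bars are means of 5 arrays. Nppa separates the ages by over 1 log2 unit, Myl7 overlaps through 1 Young array at 0.55, and Sln overlaps throughout.

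The exchanger gene Slc8a1 gave 0.04, -0.01, 0.11, 0.25 and 0.11 in the Young arrays and -0.00, -0.02, -0.00, -0.09 and -0.16 in the Old arrays. Young replicate 2 lay within the Old range, and the other 4 Young arrays above it. The difference was -0.16 ± 0.06 SE (95% confidence interval -0.28 to -0.03, adjusted p = 0.0991). Its probe set 1372449_at gave -0.21, or -0.11 without Young replicate 4, and 1370588_a_at gave -0.10, or -0.03 without Young replicate 6. Fkbp1b, whose product calstabin-2 binds Ryr2 and steadies its closed state, had almost the same mean at both ages. Its 1 probe set, 1370132_at, gave 0.01, 0.06, 0.12, -0.04 and -0.01 in the Young arrays and -0.02, 0.12, 0.04, -0.01 and -0.03 in the Old arrays. The difference was -0.01 ± 0.05 SE (95% confidence interval -0.11 to 0.10, adjusted p = 0.947), and the interval leaves out a change in signal as large as that of the receptor gene. The centred values hold no level, so a probe set near background could not be told from a gene without change.  The level of Ryr2 relative to Fkbp1b within an array was 0.20 ± 0.19 (SD, n = 5) in Young and -0.35 ± 0.24 in Old hearts, in units of log2 relative to each gene's own median.

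Set side by side, 3 of the 5 release genes and 1 of the 4 reuptake and exchange genes fell, with Fkbp1b counted in neither. Over all genes 5.09% fell. The median difference was -0.44 over the release genes (range -0.58 to -0.23) and -0.13 over the reuptake and exchange genes (range -0.34 to 0.16), where the median over all genes was -0.00503. The second list pools the pump gene Atp2a2 (-0.34) with the genes of its inhibitors, Pln (-0.11) and Sln (0.16). Its median is therefore not a measure of reuptake capacity. By probe set, 9 of 13 fell in the release group and 2 of 11 in the other, against 3.6% of all probe sets. The 9 include 1370738_a_at and 1370739_x_at of Trdn, which share a source sequence and are not independent. The medians of the 2 groups were -0.50 and -0.13, beside -0.01 over all probe sets. The median release value of an array was 0.11, 0.19, 0.25, 0.30 and 0.05 in the Young arrays and -0.02, -0.42, -0.07, -0.31 and -0.30 in the Old arrays. The median reuptake and exchange value was 0.02, 0.04, 0.07, 0.19 and 0.05 in the Young arrays and 0.01, -0.05, -0.04, -0.15 and -0.11 in the Old arrays. In both series Old replicates 2 and 4 were the Old arrays nearest to the Young ones. Release minus reuptake within an array was 0.11 ± 0.07 (SD, n = 5) in Young and -0.16 ± 0.14 in Old hearts. The members were chosen with results of these data known, so the difference between the groups is given without a test. With Fkbp1b counted among the release genes their median was -0.35, and counted among the others it was -0.11.

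Cell type marker lists were read beside these values. Among all 14217 genes, 6.77% rose, 5.09% fell and 7365 had a lower mean in Old hearts. The heart muscle cell list had 11 of 12 genes measured, 10 with a lower mean in Old hearts and 2 that fell, Myh6 for alpha myosin heavy chain (-1.24) and Actn2 for alpha-actinin-2 (-0.46). Their mean lay between 0.01 and 0.26 in Young arrays and between -0.20 and 0.03 in Old arrays, a difference of -0.25 between the ages, and the median difference over the 11 genes was -0.12. Taken over medians and not means, the difference between the ages was -0.40 for the release value of an array and -0.14 for the reuptake and exchange value. Myh6 had by far the largest difference in the marker mean, so that mean and these medians are unlike measures. Of 11 macrophage markers 5 rose, with means of -0.39 to -0.00 in Young and 0.03 to 1.05 in Old arrays, and of 9 fibroblast markers 5 rose (-0.27 to 0.01, and -0.06 to 0.44). Of 8 endothelial markers 2 rose, and of 7 smooth muscle and pericyte markers 1 did, Cspg4 (0.22, adjusted p = 0.0283). Of 4 erythroid markers limma called 0, also at an unadjusted p under 0.05. Of 11 lymphocyte markers 1 rose, Gzma for granzyme A (1.98), and the list's median difference was 0.04, with 4 of the 11 lower in Old hearts. The mean over that list was -0.27 to 0.01 in Young and 0.06 to 0.74 in Old arrays, highest in Old replicates 3 and 6, and its largest differences were those of Gzma, Prf1 (1.40, adjusted p = 0.0582) and Nkg7 (1.11, adjusted p = 0.0551), all of cytotoxic cells. Of 12 fast skeletal muscle markers 1 rose, Myl1 (1.35, adjusted p = 0.00123), and 1 fell, Casq1 (-0.81, adjusted p = 0.0459). Casq1 is also counted among the junction proteins below. The mean over the list was -0.05 to 0.07 in Young and -0.02 to 0.10 in Old arrays. At 9.09% and 8.33%, the shares that rose in the lymphocyte and fast skeletal lists were near that over all genes. The table holds no levels, so whether a marker was near 0 was not analysed. In heart tissue, fewer muscle cells and less of an RNA per muscle cell cannot be told apart, and the part of these cells in the calcium genes was not tested. Without Old replicates 3 and 6 together, Ryr2 (-0.48, adjusted p = 0.0443), Casq2 (-0.38, adjusted p = 0.0112) and Jph2 (-0.49, adjusted p = 0.0134) passed. Atp2a2 did not (-0.32, adjusted p = 0.094), and 7 of the 25 probe sets fell. That fit is no test of cell content. Old replicates 4 and 5 stayed in it, with macrophage means of 0.41 and 0.67 and fibroblast means of 0.36 and 0.44.

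**Figure D4:**
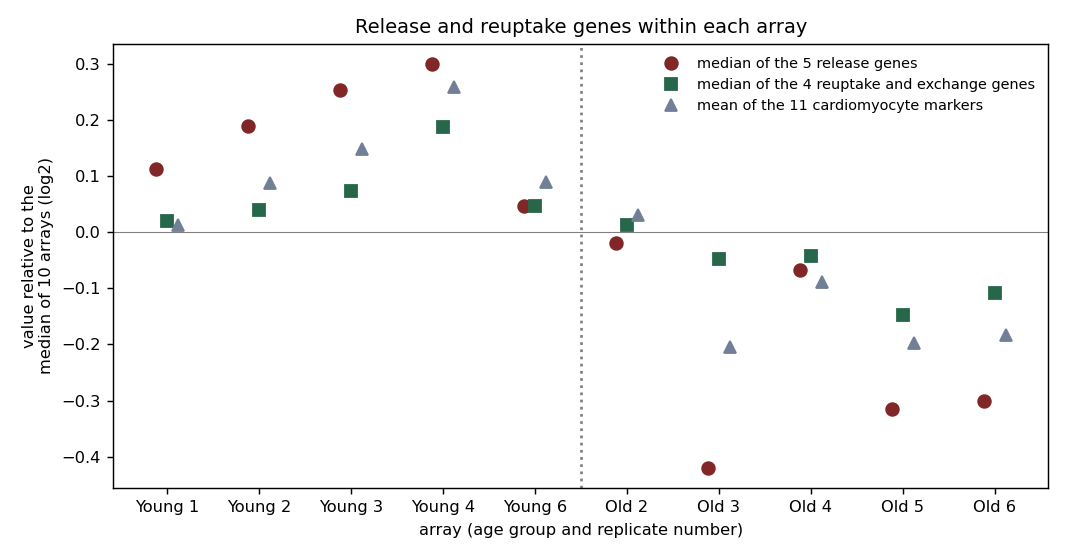
Per array, the median of the 5 release genes (circles), the median of the 4 reuptake and exchange genes (squares) and the mean of 11 heart muscle cell markers (triangles), each on the log2 scale relative to the 10-array median. The release median runs from 0.30 in Young replicate 4 to -0.42 in Old replicate 3, and the reuptake median from 0.19 to -0.15.

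The wider machinery of calcium handling was followed in a list of 68 other genes, of which 64 were measured. In it 12 fell (18.8%, against 5.09% of all genes) and 5 rose (7.81%, against 6.77%), and the median difference was -0.06. Of 17 other release channels and junction proteins measured, 7 fell and 1 rose. The deepest fall was in Dhrs7c, an enzyme of the sarcoplasmic reticulum (-1.10 ± 0.19 SE, adjusted p = 0.00476), which gave 0.14, 0.40, 0.27, 0.32 and 0.27 in the Young arrays and -0.14, -1.56, -0.63, -0.86 and -0.93 in the Old arrays. The ages were apart, with Old replicate 2 nearest to the Young arrays and Old replicate 3 lowest. Hrc, a calcium-binding protein of the store that also binds triadin, gave -0.53 ± 0.12 SE (adjusted p = 0.0139), with Old replicate 2 (0.07) among the Young arrays and the other Old arrays at -0.48 or lower. Speg, a muscle kinase of the junctional membrane, fell by 0.41 (adjusted p = 0.00438). Cmya5 of the junction (-0.49), the store protein gene Srl for sarcalumenin (-0.38), the skeletal-type calsequestrin gene Casq1 (-0.81) and the counter-ion channel gene Tmem38a (-0.20) also fell. The gene that rose, Itpr1, encodes the other kind of release channel, the inositol trisphosphate receptor. It gave -0.41, -0.48, -0.66, -0.01 and -0.16 in the Young arrays and 0.01, 0.11, 0.18, 0.13 and 0.27 in the Old arrays. Every Old array was above every Young array (0.48 ± 0.11 SE, adjusted p = 0.0127).

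Of the 6 genes around the L-type channel, 3 fell and 1 rose. Rrad, which encodes a small GTPase that inhibits the channel, fell by 0.57 (adjusted p = 0.00264), the channel's accessory subunit gene Cacna2d1 by 0.41 (adjusted p = 0.0146) and the caveolin gene Cav3 by 0.35 (adjusted p = 0.00508). Bin1, which shapes the membrane tubules that carry the channel, rose by 0.33 (adjusted p = 0.0349), and the pore gene Cacna1c was not called (-0.18, adjusted p = 0.0807). Of 21 calcium sensors, kinases and phosphatases measured, 2 rose (9.52%) and 1 fell (4.76%), shares near those over all genes. The calmodulin gene Calm2 gave -0.05, -0.30, -0.10, -0.18 and -0.06 in the Young arrays and 0.05, 0.42, 0.48, 0.37 and 0.63 in the Old arrays, a rise without overlap (0.53 ± 0.09 SE, adjusted p = 0.00476). Sri, for sorcin, which binds Ryr2, rose by 0.39 (adjusted p = 0.0384), and Ppp1r1a, for an inhibitor of protein phosphatase 1, fell by 0.38 (adjusted p = 0.00316). The kinase gene Camk2d was not called (-0.08, adjusted p = 0.33).

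Of 13 other calcium pumps, exchangers and related genes measured, 1 fell, Fxyd1 for phospholemman (-0.19, adjusted p = 0.0454), a share of 7.69% beside 5.09% of all genes. Phospholemman is itself neither a calcium pump nor an exchanger, and the other 12 genes were not called. The paralogues of the pump gene, Atp2a1 (0.06, adjusted p = 0.701) and Atp2a3 (0.08, adjusted p = 0.522), were not called. Of 7 calcium-binding proteins of the endoplasmic reticulum lumen, Rcn1 rose (0.22, adjusted p = 0.0135), with probe sets at 0.54 and -0.11. Single arrays moved these counts. Without Young replicate 2 or 3 or Old replicate 5 or 6, 7 genes of the list fell, and without Young replicate 2 or 4 or Old replicate 6, 3 rose. Without Old replicates 3 and 6 together 7 fell and 2 rose. The calls of Bin1, Casq1, Srl, Tmem38a, Cmya5, Sri and Fxyd1 were each lost without at least 5 of the 10 arrays in turn, Young replicates 2 and 3 among them for all 7, with adjusted p of up to 0.106. Those of Cacna2d1, Rrad, Cav3, Itpr1, Hrc, Dhrs7c, Speg, Calm2, Ppp1r1a and Rcn1 passed without any 1 array.

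**Figure D5:**
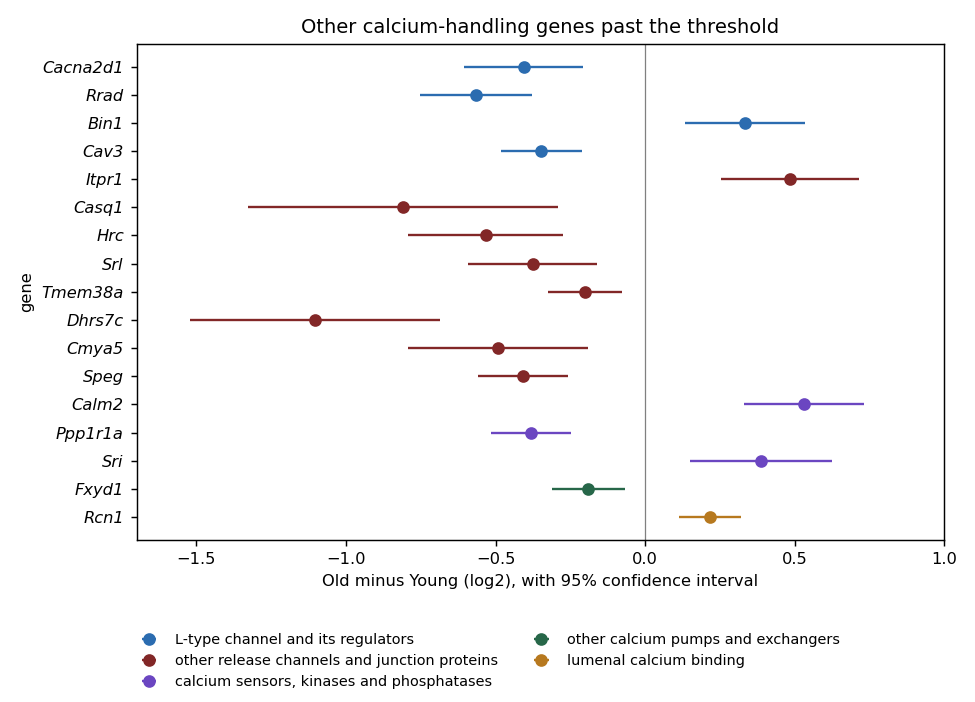
Old minus Young difference (log2) with its 95% confidence interval for the 17 other calcium-handling genes with an adjusted p under 0.05, coloured by their list. The 12 genes that fell include 7 of the other release channels and junction proteins, and the 5 that rose are Bin1, Itpr1, Calm2, Sri and Rcn1.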

How the data were processed

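Rat heart RNA, amplified over 2 cycles per the labels' protocols, was read on 10 arrays. The authors' deposited table holds signed log values, used as log2, each probe set centred on its median over the 10 arrays (all 31042 within 1e-06). For software, background correction and normalization the sources used here give nothing, and no filter on dim probe sets was possible. For arrays, their number limits the precision. Of the probe sets, 20826 had 1 gene symbol, 436 several and 9780 none listed, and 20758 matched RefSeq's GRCr8 gene table by identifier. Gene values are means of probe sets. Old was compared with Young by limma 3.58.1 (lmFit, eBayes; R 4.3.3), with no covariate and Benjamini-Hochberg adjustment over all genes or probe sets. The fit was also run on simulated data with independent noise for each gene. That setting leaves out variation shared among genes. Tables and plots used Python 3.11.15, pandas 2.3.3 and matplotlib 3.10.9. Members and lists were chosen with earlier results of these data known. All members and their probe sets are named, and of the other calcium-handling genes those past the threshold, at most 12 in each direction; other genes named were chosen after their values were seen. Alternatives were 2 normalizations, array weights, robust eBayes, an SD filter, suffix and symbol filters, a replicate block, and arrays left out. For replicate numbers shared by the ages (2, 3, 4 and 6), the deviations of the Young and Old array correlated at 0.00595, 0.0554, 0.137 and 0.0432. Arrays of unlike number were not correlated for comparison, so whether the shared numbers pair the arrays was not settled.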

Additional observations from a re-analysis of the deposited data

Results flagged for a closer look

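In 64 groups of 5 arrays of the members and 38 of other named genes, 1 array stood apart from the other 4 of its age in 3, all of members and all in Young hearts. Chance flags about 1 in 20 such groups. Young replicate 6 was low for Sln (-0.243, with the other Young arrays between -0.00 and 0.03) and high for the Slc8a1 probe set 1370588_a_at (0.323, next 0.04). Young replicate 4 was low for the Trdn probe set 1371138_at (-0.244, next -0.02). These 3 features did not pass the test between the ages.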

How the results depend on the processing

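Ryr2, Casq2 and Jph2 kept their direction and their call under all 18 alternatives run. The number of member genes that fell was 4, 5 with quantile normalization, and 3 to 5 without 1 array. Without Old replicates 3 and 6 together, 7 member probe sets fell and 1 rose, 7 other calcium-handling genes fell and 2 rose, and 1012 genes and 1526 probe sets were called in all. Of member probe sets 1 rose, in place of 0, with array weights, with the SD filter and with the replicate block, 1382060_at of Asph each time (adjusted p = 0.044 with the block). With the block 1069 genes and 1640 probe sets were called, against 1686 and 2492. The block changed the call of 1 member probe set that fell, 1382088_at (adjusted p = 0.0564), and of no member gene; 4 other calcium-handling calls were lost with it, Casq1, Tmem38a, Fxyd1 and Rcn1, the last at an adjusted p of 0.0597. Without 1 array each, the member probe sets that rose ranged from 0 to 1 and those that fell from 9 to 11. The other calcium-handling genes that rose ranged from 3 to 6 and those that fell from 7 to 12, all genes called from 988 to 1994 and all probe sets from 1481 to 2943. Trdn turned from -0.26 to 0.0489 without suffixed probe sets, which leaves out the 2 of its probe sets that fell. Differences near 0 turned sign in 1375164_at of Atp2a2 with quantile normalization (-0.00768) or array weights (-0.0575), and, without 1 array each, Fkbp1b (-0.0321 to 0.016), 1371138_at (-0.022 to 0.0501), 1370198_at (-0.0487 to 0.313) and 1375164_at (-0.0523 to 0.0504). Other causes were not tested. Median differences of the release and reuptake genes moved by less than 1 SD under every alternative that gave one. The SD filter left Pln, Fkbp1b and the reuptake median with no value. Each age has 5 arrays from an unstated number of rats, and no level above background could be read from the centred values.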
